A study of Homo sapiens with 6 samples.

Results

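U6 is the small nuclear RNA at the catalytic centre of the spliceosome, and the human genome holds a few genes for it and many pseudogene copies. The entries described here are those with a name that starts with RNU6-, or that is U6 alone, and with a summed count of at least 10 over the 6 libraries. RNU6ATAC, the U6 counterpart of the minor spliceosome, is not among them. RNU6-2 was to be kept whatever its count. This left 20 entries of the 1322 U6-named ones and of the 28846 small RNAs in each file. The choice rests on the summed count over both conditions, so that the total of each entry is a description and not a result.

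The cells were K562, an established human erythroleukemia line that can be driven towards erythroid or megakaryocytic features. They received a lentiviral vector, SIEW, that carries GFP only (control), or SIEW RUNX1, which carries human RUNX1 and GFP, and each condition has 3 samples. RUNX1 is a transcription factor of blood cell development. All 6 samples thus carry a GFP vector, differ by the RUNX1 cDNA and were harvested after 10 days in culture. RUNX1 is driven by the vector and is not under the control of its own gene, and its mRNA is not measured by small RNA sequencing. The labels give no clones, so that each library is taken as a transduced pool of the line.

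U6 is made by RNA polymerase III, which ends transcription in a run of T. It pairs with U4, joins U5 in a tri-snRNP, and is released from U4 when the spliceosome is activated. It then pairs with the intron at the 5′ splice site through its ACAGAGA box and with U2 at the catalytic centre. Most RNU6 copies in the genome are retroposed pseudogenes, named with a final P, that have no U6 promoter of their own. The TruSeq small RNA kit is made for RNAs of microRNA length, so a count here is a read of a short fragment that was assigned to a U6 entry, and it need not follow the amount of full-length U6.

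Transcripts of the entries were taken from GENCODE 29 on GRCh38, matched by name, since the files give no coordinates for these entries and the submitters' processing notes name hg19. They show how far the entries with the largest counts or the largest differences depart from RNU6-2.

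RNU6-23P differed from RNU6-2 at 8 of 107 positions and RNU6-222P at 9, and neither ends in TTTT. RNU6-1067P differed at 8 positions. It lacks an intact ACAGAGA box and keeps the final T run. RNU6-1128P and RNU6-1163P are the more distant copies, with 81.3% and 83.2% of the RNU6-2 positions identical. RNU6-1128P also lacks an intact ACAGAGA box, and it lies in an intron of LIMK2 on the opposite strand. RNU6-2, RNU6-23P, RNU6-222P, RNU6-1067P and RNU6-1163P lie in no other annotated gene.

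GENCODE held a transcript for 1263 of the 1322 U6-named entries and for 19 of the 20 described here, RNU6-736P being the one with no match. The median share of RNU6-2 positions that are identical was 88.8% in the 19 entries, with a range of 53.3% to 100%, and 81.3% in the 1112 matched entries with no count. The ACAGAGA box, searched as those letters on the transcript strand, was intact in 14 of the 19 (73.7%) and in 54.2% of all 1263. A TTTT end was present in 10 of the 19 (52.6%) and in 39% of all. These shares are a description of entries chosen by their counts. The 19 entries lie on 11 chromosomes. 10 of them are in no other annotated gene, 4 are in an intron of a gene on the same strand, namely METTL9, ASH1L, CBX1 and SSH2, and none is in an exon of a same-strand gene.

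U6 entries took few reads. Total counts ranged from 1618248 to 6193319 in control and from 7918551 to 15245007 in RUNX1 libraries. The 20 entries together had 46, 276 and 226 counts in control replicates 1, 2 and 3, and 91, 38 and 83 counts in RUNX1 replicates 1, 2 and 3. Of the 1322 U6-named entries, 1166 had no count in any library. Only RNU6-23P and RNU6-222P had more than 50 counts, and the other 18 had totals of 11 to 43. Of the 20, 6 had a count in all 6 libraries. At least 10 counts were reached in each condition by 3 entries, in control only by 7, in RUNX1 only by 5, and in neither alone by 5. For the 7 and the 5, the choice itself favours a difference between the conditions.

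The line and the libraries were checked on microRNAs. The erythroid miR-451a had 5950 to 23985 counts and miR-486-5p 1672 to 6118, whereas the liver microRNA miR-122-5p had 1 to 13 and the neuronal miR-124-3p 0 in each library. The chi-square per degree of freedom between replicate libraries was 9.62 to 451, above the 1 that sampling alone gives, so that no library is a second deposit of another. A figure legend of the study describes the transductions as independent triplicates. The spread between samples thus includes that of the transduction. CPM is the count per 1000000 counts of the TMM-scaled library, whose size edgeR corrects so that most small RNAs are centred. Tests between the conditions are edgeR's quasi-likelihood F-test with P-values adjusted by Benjamini-Hochberg over all rows tested, and SE is the standard error of a log2 fold change. The mean TMM factor was 1.28 in control against 0.786 in RUNX1 libraries. The median log2 fold change of the 947 tested small RNAs was -0.06 with TMM and -0.76 with library size alone, so that log2 fold changes are lower by about this shift under the second scaling.

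**Figure D1:**
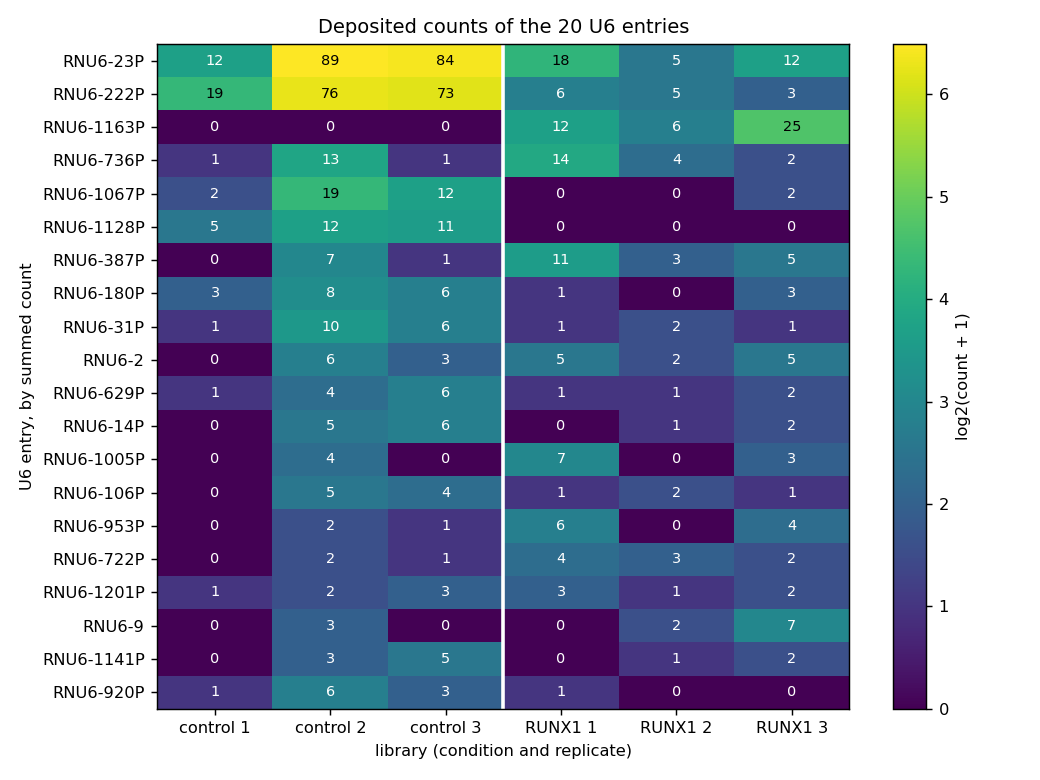
Deposited counts of the 20 U6 entries (rows, ordered by summed count) in the 6 libraries (columns), printed in each cell and coloured by log2(count + 1). RNU6-23P and RNU6-222P are brightest in the control columns, RNU6-1128P is at 0 in all RUNX1 columns and RNU6-1163P is at 0 in all control columns.

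The first question was whether reads of the U6 genes themselves differed between the conditions. RNU6-1, RNU6-2, RNU6-7, RNU6-8 and RNU6-9 are the copies regarded as functional genes. RNU6-2, to which the study normalised its q-RT-PCR of mature microRNAs, had 0, 6 and 3 counts in control against 5, 2 and 5 in RUNX1 libraries. The values overlap between the conditions. The means were 0.38 ± 0.372 CPM for control and 0.494 ± 0.211 CPM for RUNX1 (SD, n = 3 each), which differ by 0.115 CPM (exact permutation test, two-sided, p = 0.7). The sign of this difference was not stable, being -0.0883 CPM with library size alone and -0.0753 CPM without control replicate 1, the shallowest library. At this depth no difference of RNU6-2 was detectable.

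RNU6-9 had 0, 3 and 0 counts in control against 0, 2 and 7 in RUNX1 libraries. RNU6-1 had 2 counts in all, RNU6-8 had 2, both in control replicate 3, and RNU6-7 had none. The entry named U6 had 5 counts in all and was thus not among the 20. RNU6-2, RNU6-9 and RNU6-1 have the same sequence, as do 4 further entries named as pseudogenes, so that a read of any of these 7 cannot be placed. Together these 7 held 35 counts. The authors' handling of reads that match several entries is not given in the sources used here. RNU6-7 and RNU6-8 depart from RNU6-2 at 1 position.

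Summed over the 5 genes, the counts were 0, 10 and 5 in control against 5, 4 and 13 in RUNX1 libraries. These are 0.633 ± 0.621 CPM and 0.99 ± 0.792 CPM (SD, n = 3 each), and the ranges overlap. With library size alone the means were 0.811 and 0.813 CPM.

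The pseudogene entries with the most reads were lower upon RUNX1 over-expression. RNU6-23P had 12, 89 and 84 counts in control against 18, 5 and 12 in RUNX1 libraries. In CPM the control samples had 5.74, 11 and 11.1 and the RUNX1 samples 1.56, 0.8 and 1.75, so that the conditions do not overlap although control replicate 1 lies well under the other controls. RNU6-23P fell by 2.79 on the log2 scale (SE 0.339, edgeR adjusted p = 0.000118).

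RNU6-222P had 19, 76 and 73 counts in control against 6, 5 and 3 in RUNX1 libraries. Its CPM were 9.08, 9.43 and 9.61 in control, the tightest of the entries tested, and 0.52, 0.8 and 0.438 in RUNX1 samples. RNU6-222P had a log2 difference of -4 (SE 0.283, edgeR adjusted p = 4.64e-06).

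RNU6-1128P had 5, 12 and 11 counts in control against none in RUNX1 libraries. The 3 control values of 2.39, 1.49 and 1.45 CPM were near each other despite the different depth of these libraries. Against a floor of 3 counts over the 3 RUNX1 libraries, it was at least 13-fold lower in RUNX1 samples. The fitted test called it lower (edgeR, adjusted p = 0.00053), and its fitted fold change depends on the prior count.

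These 3 were the entries kept by the low-count filter of edgeR, and all 3 were called lower, where a call needs a P-value under 0.05 and a log2 difference of 0.5 or more in size. Of all 947 small RNAs tested, 57.6% were called and 29.6% were called lower, 54.6% were called when the adjusted P-value was used, and in 64.8% the conditions did not overlap. All 3 passed the filter through their control counts, whereas RNU6-1163P, with 0 counts in control and 43 in RUNX1 libraries, was not kept. The filter thus favoured entries that are higher in control, and the shared direction of the 3 is not separate evidence. The other 17 entries were not tested, so the 3 do not stand for the 20.

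Entries under the filter were fitted without it, among 3084 small RNAs with at least 1 count, of which 24.7% were called and 12.3% called lower. For RNU6-1128P the adjusted p was 1.64e-07 in this edgeR fit against 0.00053 with the filter, so P-values of the fits are not comparable. In this fit 8 of the 20 U6 entries were called lower and 1 higher. Of the 8, RNU6-1067P, RNU6-1128P, RNU6-180P, RNU6-31P, RNU6-14P and RNU6-920P had reached 10 counts in control only, and the higher one in RUNX1 only, so that the choice by counts favoured these calls and the number is not read against the background. RNU6-1067P had 2, 19 and 12 counts in control against 0, 0 and 2 in RUNX1 libraries. Every control sample had more CPM than every RUNX1 sample, and RNU6-1067P fell by 4.12 on the log2 scale (SE 0.798, edgeR adjusted p = 2.93e-06). The shorter RNU6-180P, a copy of 61 bases that covers the first part of U6 only, had 3, 8 and 6 counts in control against 1, 0 and 3 in RUNX1 libraries. RNU6-31P, with 97.2% of the RNU6-2 positions identical, had 1, 10 and 6 against 1, 2 and 1 counts. RNU6-180P and RNU6-31P had log2 fold changes of -2.39 and -2.32 (edgeR adjusted p = 0.0223 and 0.0283).

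RNU6-920P had 1, 6 and 3 counts in control against 1, 0 and 0 in RUNX1 libraries, or -3.26 on the log2 scale (edgeR adjusted p = 0.0398). RNU6-14P, with 0, 5 and 6 counts in control against 0, 1 and 2 in RUNX1 libraries, overlapped between the conditions. It passed the unadjusted threshold only, with an adjusted p of 0.149 in this edgeR fit.

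RNU6-1163P moved the other way. It had 0, 0 and 0 counts in control against 12, 6 and 25 in RUNX1 libraries, and these are 1.04, 0.96 and 3.65 CPM in the RUNX1 samples. RUNX1 replicate 3 was well above the other two. Against a floor of 3 counts over the control group, RNU6-1163P was at least 10.3-fold higher in RUNX1 samples, and at least 6.32-fold higher with library size alone. It was not kept by the filter, and without it the same edgeR test called it higher (adjusted p = 6.79e-08). This value is not comparable with those from the fit with the filter. RNU6-1163P entered the 20 through its RUNX1 counts. The control libraries together are less deep than the RUNX1 libraries, and the bound takes this into account. Of its 88 windows of 20 bases, 45 are in no other U6-named transcript and none is in RNU6-2. In GENCODE transcripts that are not U6-named, 13 of the 88 are found.

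The remaining entries did not pass the test without the filter. RNU6-736P had 1, 13 and 1 counts in control against 14, 4 and 2 in RUNX1 libraries, with 0.741 ± 0.775 and 0.715 ± 0.466 CPM (SD, n = 3 each). RNU6-387P had 0, 7 and 1 against 11, 3 and 5 counts, and the conditions overlap in CPM. RNU6-1005P, RNU6-953P and RNU6-722P had higher mean CPM in RUNX1 samples, and RNU6-629P, RNU6-106P, RNU6-1201P and RNU6-1141P in control. In RNU6-629P and RNU6-722P the CPM of the conditions did not overlap, with 11 or fewer counts in any condition. By mean CPM 13 of the 20 entries were higher in control against 7 in RUNX1 samples, and with library size alone 14 and 6.

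Near the count threshold the entries showed both directions. Just inside it, RNU6-722P had 3 counts in control against 9 in RUNX1 libraries, RNU6-1201P 6 and 6, RNU6-9 3 and 9, RNU6-1141P 8 and 3, and RNU6-920P 10 and 1. Just outside it, RNU6-968P had 0 and 9, RNU6-546P 8 and 1, RNU6-729P 3 and 6, RNU6-997P 5 and 2, and RNU6-490P 1 and 6.

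Since near-identical copies can exchange reads, the 20 entries were also added up before the test. Their sum was 22, 34.2 and 29.7 CPM in control against 7.89, 6.08 and 12.1 CPM in RUNX1 samples. All control samples thus lay above all RUNX1 samples. The sum fell by 1.75 on the log2 scale (SE 0.268, edgeR adjusted p = 0.000479). With the 20 entries as 1 row, a share of 57.5% of the 945 rows was called and 29.4% were called lower. With library size alone the sum fell by 2.43.

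The sum rests on RNU6-23P and RNU6-222P. Without both, the 18 other entries had 10 ± 3.4 CPM in control against 6.74 ± 2.84 CPM in RUNX1 samples (SD, n = 3 each), the conditions overlapped, and the difference was -0.64 on the log2 scale (SE 0.335, edgeR adjusted p = 0.132). The 1302 U6-named entries under 10 counts, which are not part of the 20, had 25, 63 and 71 counts in control against 47, 28 and 46 in RUNX1 libraries when added up. Their sum was 12, 7.81 and 9.35 CPM in control against 4.08, 4.48 and 6.71 CPM in RUNX1 samples, with no overlap. This sum fell by 0.89 on the log2 scale (SE 0.267, edgeR adjusted p = 0.0175). Leaving out RNU6-23P and RNU6-222P, and taking the entries under 10 counts alone, were chosen after the data were seen.

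**Figure D2:**
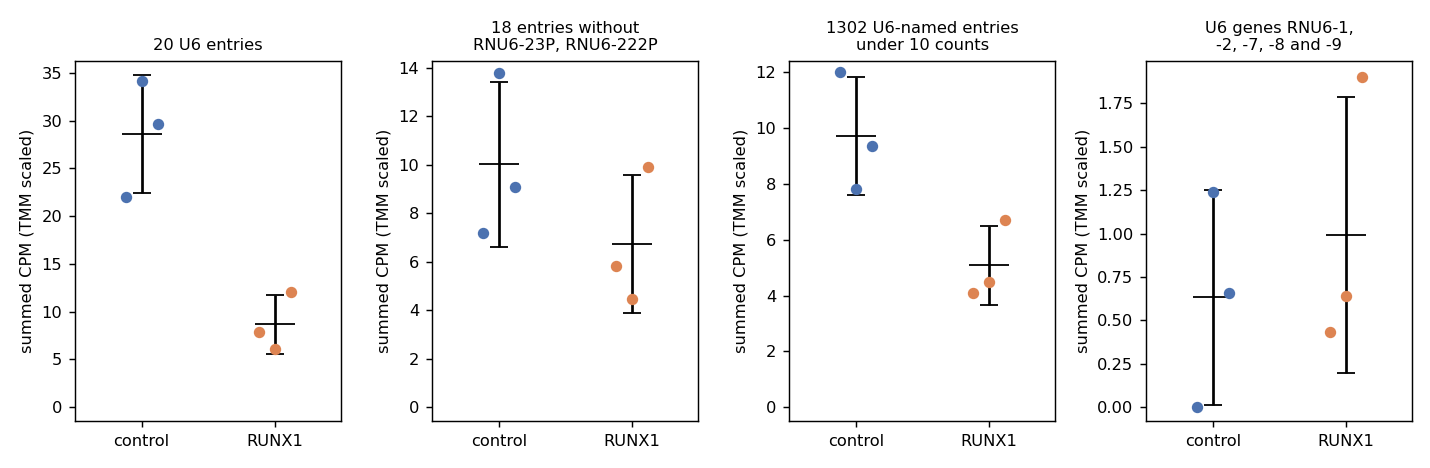
Summed CPM (TMM scaled) of 4 sets of U6-named entries in 3 control and 3 RUNX1 samples, with points for samples, a horizontal line for the mean and bars for the SD. The 20 entries and the 1302 entries under 10 counts separate the conditions, while the 18 entries without RNU6-23P and RNU6-222P, and the 5 U6 genes, overlap.

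Shares of counts take the whole library as the reference, like scaling to library size alone. The 20 U6 entries took 0.00284% of the counts of control replicate 1 (95% Wilson interval 0.00213 to 0.00379), 0.00449% of replicate 2 (0.00399 to 0.00505) and 0.00365% of replicate 3 (0.0032 to 0.00416). In RUNX1 replicates 1, 2 and 3 they took 0.000597% (0.000486 to 0.000733), 0.000447% (0.000325 to 0.000613) and 0.00105% (0.000846 to 0.0013). The intervals cover counting error only. No RUNX1 interval reaches a control interval. The means were 0.00366% ± 0.000822 and 0.000697% ± 0.000313 (SD, n = 3 each; exact permutation test, two-sided, p = 0.1, which is the lowest value possible with 3 against 3). With microRNAs left out of the total, the means were 0.0201% and 0.00747%, a smaller ratio between the conditions. Without RNU6-23P and RNU6-222P the means of all counts were 0.00128% and 0.000542%.

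The fall of the leading entries can also be given as their share of the U6 reads. RNU6-23P and RNU6-222P together held 67.4%, 59.8% and 69.5% of the counts on the 20 entries in control against 26.4%, 26.3% and 18.1% in RUNX1 libraries. The difference of the means was -42.0 percentage points. The pair was chosen after its values were seen and has most of its counts in control, so this difference is a description with no test. RNU6-23P alone, the entry with the highest total, held 31.8% ± 5.55 in control against 15.8% ± 3.51 in RUNX1 libraries (SD, n = 3 each; exact permutation test, p = 0.1), which is no evidence apart from its own fall. RNU6-23P and RNU6-222P share 5 windows of 20 bases, and all 5 are in RNU6-2 too. RNU6-23P has 31 and RNU6-222P 30 of 88 windows in no other U6-named transcript. Of the 88 windows, 19 of RNU6-23P and 39 of RNU6-222P are in GENCODE transcripts that are not U6-named.

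U6 works with the other spliceosomal RNAs, and these were also added up as families. Their sums hold every named entry with no count threshold, variants and pseudogenes included. The U6 sum holds only the entries with at least 10 counts. U1, which recognises the 5′ splice site before U6 does, had a log2 difference of -1.79 (SE 0.256), and U5, which holds the exons, one of -1.62 (SE 0.197). Both were called lower, as U6 was. The U1 sum is over 141 entries, and the U1 genes of the list given below were not among those tested singly. With every U6-named entry, as in the other families, the U6 sum had -1.49 (SE 0.226) and was also called lower. U2, which pairs with the branch site, had 0.43 (SE 0.247) and U4, the pairing partner of U6, 0.24 (SE 0.264), and neither was called. The adjusted p of U2 and U4 were 0.163 and 0.463 in the edgeR fit. The spread between RUNX1 samples was wide for both, with 316 ± 117 CPM for U2 and 53.6 ± 19.4 CPM for U4 (SD, n = 3).

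**Figure D3:**
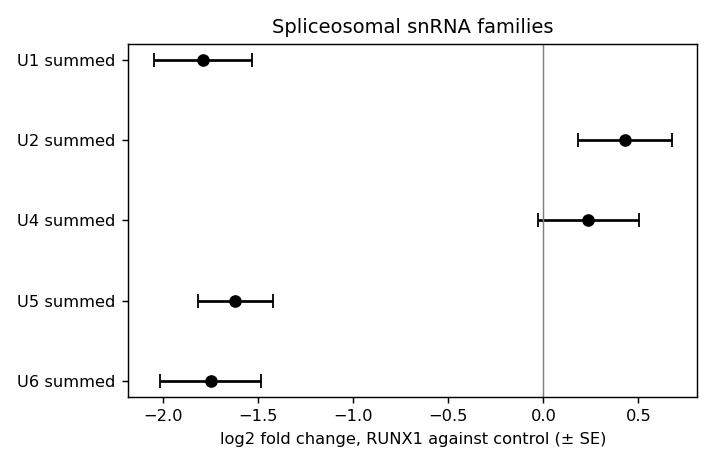
Log2 fold change of RUNX1 against control samples for the summed entries of 5 spliceosomal snRNA families, with bars for the standard error of the edgeR fit. U6 is the sum of the entries with at least 10 counts, and the other families are sums of every named entry. U1, U5 and U6 lie between -1.79 and -1.62, and U2 and U4 lie to the right of 0, where neither passed the test.

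Within a library, the 20 U6 entries held 1.22%, 1.77% and 1.55% of the snRNA-named counts in control against 0.575%, 0.479% and 0.705% in RUNX1 samples. The difference of the means was -0.925 percentage points (exact permutation test, two-sided, p = 0.1). Without RNU6-23P and RNU6-222P it was -0.0757 percentage points (exact permutation test, p = 0.6). The log2 ratio of U6 to U4 and U5 counts, the partners in the tri-snRNP, was -5.45, -4.81 and -5.04 in control against -5.28, -5.73 and -5.16 in RUNX1 samples. These values overlap, and the difference of -0.29 was within the spread (exact permutation test, two-sided, p = 0.4). Most reads of this denominator are from U5. Against U4 alone the difference was -1.93 and against U5 alone -0.11 (exact permutation tests, p = 0.1 and p = 0.7). Without RNU6-23P and RNU6-222P the difference from U4 and U5 together turned to 0.87 (exact permutation test, p = 0.2). The U4 and U5 counts include every entry of these families, with no count threshold. With every U6-named entry in place of the 20, the difference was -0.0539 (exact permutation test, p = 0.7).

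Single genes of the pathway were read from lists. Of 18 other spliceosomal snRNA genes, 10 were tested, of which 4 were called lower, 1 higher and 5 neither, with a median log2 fold change of -0.35 against -0.06 for all 947. The U1 genes and RNU2-1 of the list were not among the 10. For comparison, 57.6% of all 947 were called, 29.6% lower and 28% higher. Over all 31 other snRNA-named entries tested, variants and pseudogenes included, 20 were called lower and 2 higher, with a median of -1.24. Among the 10 genes of the list, the lower ones were RNU5B-1 with -1.02, RNU5D-1 with -1.88, RNU5E-1 with -2.10 and RNU5F-1 with -1.99, all U5 variants, while RNU5A-1 with -0.30 was not called. RNU12, the U2 counterpart of the minor spliceosome, was higher with 0.90. Of 28 other products of RNA polymerase III, 17 were listed in the files and 1 passed the filter, the 5S rRNA gene RNA5S9, which was called lower at -1.61 on the log2 scale (SE 0.405). A further list held snoRNAs that guide modification of U6, and SCARNA1, a scaRNA that is not counted here as a guide of U6. All 7 were tested, with a median of -0.19. Of these, SNORD94 fell by 0.54 on the log2 scale (SE 0.129, edgeR adjusted p = 0.0056). The other 6 were not called, beside 57.6% called over all 947. They were SNORD7, SNORD8, SNORD9, SNORD10, SNORD67 and SCARNA1.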

How the data were processed

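Small RNA was sequenced from 3 control and 3 RUNX1 samples of K562, from 1000 ng of total RNA. The authors counted reads per annotated small RNA, and the deposited values are raw counts, without normalization. The labels' processing notes name CASAVA 1.8.2 and hg19. For its differentially expressed small RNAs the study names the OASIS platform, run with standard parameters. The aligner and the treatment of reads with several matches are not given in the sources used here. The 5 summary lines at the end of each file hold 0 counts and were left out. Groups and replicate numbers were taken from the sample titles. Library names carry another letter in each condition, and if this marks a preparation, it cannot be told apart from the condition. The entries and gene lists were chosen with earlier results of these data known.

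Counts were fitted with edgeR 4.0.16 in R 4.3.3 (filterByExpr, TMM, glmQLFit, glmQLFTest, condition as the only term), every entry a row, or the 20 U6 entries summed to 1 row. Calls used the study's thresholds, a P-value under 0.05 with a log2 difference of 0.5 or more in either direction. P-values were adjusted over all rows tested. Standard errors were obtained by dividing the log2 fold change by the root of F. Shares and ratios were compared by exact permutation tests (scipy 1.17.1). The fits were tested on simulated data. Alternatives were DESeq2 1.42.0, other scalings, other count filters, the adjusted P-value, other choices of entries or denominators, the replicate number as a block, and each library left out. Named entries are those that passed the filter, the U6 genes, the entry U6, the 5 highest totals and those near the count threshold. Entries called without the filter were named after their values were seen, as were the entries outside this rule. Sequences are from GENCODE 29, compared with RNU6-2 by global alignment (Biopython 1.88). The sequences themselves are not reported here.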

Additional observations from a re-analysis of the deposited data

How the results depend on the processing

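The lower sum of the 20 U6 entries kept its call in 18 of 19 alternatives, from -3.26 with the entries of at least 50 counts to -1.38 with TMM factors from small RNAs other than microRNAs. It was not called without RNU6-23P and RNU6-222P, at -0.635. The entry named U6 is not among the 20, so leaving it out changed nothing. With each library left out it ranged from -1.97 to -1.52. The number of U6 entries called was 3, rose to 9 with no count filter and was 0 with at least 10 counts in every sample, where none was left to test. With each library left out it was 3 to 4. The fourth was RNU6-1067P without control replicate 1 or without any one RUNX1 replicate, and RNU6-180P without control replicate 3. RNU6-23P, RNU6-222P and RNU6-1128P were called lower in all of these 6 runs.

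With each library left out, the difference in the share of all counts was -0.00337 to -0.00255 percentage points, in the share of snRNA counts -1.07 to -0.798, in the RNU6-23P share -18.9 to -13.4, and in the log2 ratio of U6 to U4 and U5 -0.467 to -0.121. That ratio reversed to 0.865 without RNU6-23P and RNU6-222P. The RNU6-2 difference reversed to -0.0883 CPM with library size only, -0.0753 without control replicate 1 and -0.00302 without RUNX1 replicate 3, and ranged from -0.0753 to 0.297 over the libraries left out. The causes were not tested. Of the called small RNAs, 48.6% were higher with TMM, 18.7% with library size only, 38.2% with TMM on microRNAs and 65.4% with TMM without microRNAs.

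The replicate numbers did not pair the samples, with correlations of -0.0327, -0.0904 and 0.0178 between same-numbered deviations, and 1 of 6 samples correlated best with its own number. With the replicate block the sum was -1.74 and 3 entries were called. Depth limits most entries, since 18 of the 20 had 43 counts or fewer over 6 libraries.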
